A study of Mus musculus with 12 samples.

Results

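MTΔECad cells, a mesenchymal mouse breast cancer line whose name marks the loss of E-cadherin, were compared at day 5 and day 3 of treatment meant to make fat cells of them. The day 5 group had received the growth factor BMP2 (200 ng/ml) throughout and the drug rosiglitazone (2 µM) for the last 2 days. The day 3 group had received BMP2 (200 ng/ml) alone. Members were taken by their time point label, which gave 4 of the 12 libraries of the series, 2 per group. The other libraries came from 0 h, 6 h, day 7 and day 10: per the labels' protocols, BMP2 with rosiglitazone went on for 4 days in all and rosiglitazone alone for the last 3 days. All cells were seeded at 20000 cells per cm2, and the 2 libraries of a time point came from 2 independent experiments with 1 cell line. No cells kept without rosiglitazone to day 5 were among the samples, so the drug, 2 more days of BMP2 and 2 more days in culture cannot be told apart, and every difference below is one between the 2 times.

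Rosiglitazone is an agonist of PPARγ, a nuclear receptor that pairs with an RXR receptor on DNA and switches on the genes of fat cells. BMP2 belongs to the bone morphogenetic proteins, which act through SMAD1 and SMAD5 and can commit mesenchymal cells to the fat lineage. During fat cell formation PPARγ and C/EBPα keep each other's genes on, and cells that complete it store triglyceride, gain mitochondria and leave the cell cycle.

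The day 5 and day 3 libraries held 13175402 to 16120302 counts each. Values below are CPM, counts scaled to a common library size by TMM, with replicate 1 before replicate 2. Fold changes are log2 values of day 5 over day 3, so a positive one is higher at day 5. They come from 1 edgeR quasi-likelihood model over all 12 libraries with a mean per time point, and a gene was called at a Benjamini-Hochberg adjusted p below 0.05. Replicates were separate experiments, and p-values rest on their spread pooled over all 6 time points. Of 12740 genes tested, 8275 (65.0%) were called: 4330 (34.0%) rose and 3945 (31.0%) fell. Every count of list members called higher or lower below is to be read against these 34.0% and 31.0%. By fitted fold change, at least 2-fold, 2004 genes (15.7%) rose and 1290 (10.1%) fell. At least 8-fold, 515 rose and 153 fell. Among genes with more than 3 counts in both groups, 265 rose and 99 fell at least 8-fold and 29 rose and 3 fell at least 64-fold. The median change was 0.92 among genes called higher, -0.70 among genes called lower and 0.01 over all genes tested. The 2 groups did not overlap in 10127 genes (79.5%), so a lack of overlap, where named below, was the usual case. In 214 genes tested the day 3 group held 0 counts. Such a gene could pass the filter on low counts only because it was higher at other times, so its difference was partly built in. For these genes the fold is given as a bound, computed as if the group at 0 had held 3 counts, the upper limit that a count of 0 allows. With 1 to 3 counts in a group, a ratio with its exact counting interval is given. Bounds cover only counting error in the group at 0 and take the other group's count as exact. Intervals cover only counting error, in both groups. Fewer cells that make a transcript cannot be told apart from less of it per cell.

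The cells were first checked against their label. Cdh1, which encodes E-cadherin, had 0.559 and 0.239 CPM at day 5, against 0.508 and 0.855 CPM at day 3, and the difference was not called (adjusted p = 0.332). Vim, which encodes the mesenchymal filament protein vimentin, had 2963 and 3013 CPM in the day 5 libraries and 2905 and 2007 CPM in the day 3 libraries. Its difference was not called (adjusted p = 0.0698), although it was without day 3 replicate 1 (0.57, adjusted p = 2.62e-05), by DESeq2 (0.27, adjusted p = 0.0437) and with no filter (0.26, adjusted p = 0.00588). The 29 mesenchymal genes listed summed to 8559 and 9515 CPM at day 5 and to 16550 and 20177 CPM at day 3. The difference between these sums rests largely on Fn1, given below, whose replicates lay far apart. The 27 epithelial genes listed summed to 1049 and 937 CPM at day 5 and to 390 and 265 CPM at day 3, and keratin genes among them are given below. Of the 20 leukocyte and macrophage markers listed, 3 passed the filter and 2 of them rose, with the list summing to 15.6 and 16.1 CPM at day 5 and to 9.84 and 8.49 CPM at day 3. Of 15 endothelial markers 7 passed, 1 rose and 1 fell, and the list summed to 27.5 and 27.7 CPM at day 5 against 20.6 and 20.7 CPM at day 3. The count of lower endothelial genes was 0 without either day 3 library, by DESeq2 or with a filter at a mean of 1 CPM, and that of higher ones was 2 without either 6 h library. Of 16 muscle markers 4 passed and none was called, with sums of 0.994 and 1.73 CPM at day 5 against 1.08 and 1.05 CPM at day 3. The part of the leukocyte, endothelial and muscle lists in the results was not tested.

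The gene of the receptor that rosiglitazone binds was already expressed at day 3 and rose further. Pparg had 195 and 173 CPM at day 5, against 46.1 and 25.3 CPM at day 3 (log2 fold change 2.36, SE 0.22, adjusted p = 2.39e-05). Both day 5 libraries lay above both day 3 libraries, and the day 3 libraries lay further apart from each other. At 0 h Pparg had 0.147 and 0.124 CPM, and its change before the drug was added, day 3 over 0 h, was 7.97. Its DNA-binding partner gene Rxra had 246 and 235 CPM at day 5, against 56.4 and 51.7 CPM at day 3 (log2 fold change 2.15, SE 0.08, adjusted p = 4.86e-13), whereas Rxrb, another such partner, fell (-0.45, adjusted p = 0.000318). Among the other receptors of the family, Ppara, which drives fat burning in liver, had 5.66 and 6.38 CPM in the day 5 libraries and 0 and 0 CPM in the day 3 libraries. The day 3 libraries held 0 counts of it, which makes it at least 62.2-fold higher at day 5. Ppard rose as well, with 23.4 and 24.2 CPM at day 5 and 8.13 and 8.75 CPM at day 3 (log2 fold change 1.50, SE 0.14, adjusted p = 4.75e-08). Per gene length, Pparg stood far above both at day 5, at 79.2 ± 6.53 RPKM (CPM per kilobase of gene length; SD, n = 2), against 7.40 ± 0.174 RPKM for Ppard and 0.800 ± 0.0684 RPKM for Ppara.

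Coactivators of mitochondrial genes rose with the receptors. Ppargc1a, which encodes PGC-1α, had 65.4 and 67.7 CPM at day 5, against 7.05 and 5.66 CPM at day 3 (log2 fold change 3.39, SE 0.14, adjusted p = 1.98e-12). Ppargc1b, its relative PGC-1β, had 45.1 and 44.2 CPM at day 5 and 2.48 and 2.76 CPM at day 3 (log2 fold change 4.09, SE 0.14, adjusted p = 2.76e-13). Nr1h3, the sterol receptor LXRα and a known PPARγ target, had 75.8 and 62.4 CPM at day 5 and 4.76 and 3.55 CPM at day 3 (log2 fold change 4.05, SE 0.14, adjusted p = 4.04e-13). The groups did not overlap in any of these 3 genes, as in 79.5% of all genes tested, and the replicates of each time lay close together. In the whole list of nuclear receptors and co-regulators 10 of 17 tested members rose and 3 fell (Med1, Ncoa3 and Rxrb), against 34.0% and 31.0% of all genes, with a median of 0.78. The corepressor gene Ncor1 rose by 0.61 (adjusted p = 1.2e-06). The fall of the mediator subunit gene Med1 (-0.25, adjusted p = 0.00709) was not called without day 3 replicate 2 (adjusted p = 0.0964) or without day 5 replicate 1 (adjusted p = 0.0623).

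Transcription factors of fat cell formation did not move as a block. Of 23 tested, 9 rose, 10 fell and the median change was 0.00. Cebpa, which encodes C/EBPα and acts beside PPARγ late in the programme, had 411 and 335 CPM at day 5, against 43.5 and 35.2 CPM at day 3 (log2 fold change 3.24, SE 0.12, adjusted p = 3.61e-12). Cebpb and Cebpd, which encode the early factors C/EBPβ and C/EBPδ, stayed near their day 3 values: Cebpb had 180.3 and 168 CPM at day 5 and 148 and 159.7 CPM at day 3 (adjusted p = 0.241). Cebpd had 16.7 and 16.2 CPM at day 5 and 15.0 and 17.6 CPM at day 3 (adjusted p = 0.943). Srebf1, the lipogenic factor SREBP1, had 1848 and 1703 CPM at day 5, against 252 and 192 CPM at day 3 (log2 fold change 3.00, SE 0.14, adjusted p = 3.96e-10). Zfp423, a zinc finger factor of preadipocyte commitment, had 18.9 and 20.0 CPM at day 5 and 1.02 and 0.658 CPM at day 3 (log2 fold change 4.52, SE 0.20, adjusted p = 1.79e-11). In the other direction, Klf4, an early factor that acts before C/EBPβ in mouse preadipocytes, had 1.37 and 1.43 CPM at day 5, against 23.2 and 41.8 CPM at day 3 (log2 fold change -4.53, SE 0.39, adjusted p = 2.35e-06). The members that fell also held Klf5, Klf6, Klf9, Klf15, Egr2, Ebf1, Creb1, Tfe3 and Atf4, several of which act early in that sequence.

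Genes known to hold fat cell formation back were split too, with 9 of 19 higher and 4 lower. The largest falls were in a pair of stress-induced genes whose products bind or block C/EBP proteins and insulin signalling. Ddit3, which encodes CHOP, had 36.7 and 34.2 CPM at day 5, against 255 and 345 CPM at day 3 (log2 fold change -3.08, SE 0.13, adjusted p = 2.05e-10). Trib3 had 25.8 and 21.8 CPM in the day 5 libraries and 209 and 293 CPM in the day 3 libraries (log2 fold change -3.40, SE 0.22, adjusted p = 1e-06). Gata3, which restrains PPARγ in preadipocytes, went the other way with 151 and 174 CPM at day 5 and 46.9 and 47.0 CPM at day 3 (log2 fold change 1.79, SE 0.08, adjusted p = 8.6e-12), and Twist1 rose by 0.72 (adjusted p = 3.35e-05).

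The genes that PPARγ is known to switch on mostly rose. Of 42 listed targets, all tested, 36 rose, 3 fell and 3 were not called. Their median change was 4.29, or 4.05 with bounds or ratios for the 12 genes at 0 to 3 counts in a group, against 0.01 over all genes. Fabp4, which ferries fatty acids inside fat cells, had 1386 and 1129 CPM at day 5, against 1.84 and 1.32 CPM at day 3 (log2 fold change 9.63, SE 0.18, adjusted p = 2.26e-16). Plin1, which coats the lipid droplet, had 746 and 627 CPM in the day 5 libraries and 0.127 and 0.132 CPM in the day 3 libraries (log2 fold change 12.29, SE 0.20, adjusted p = 1.29e-16). Cd36, the fatty acid transporter, had 543 and 480.2 CPM at day 5, against 0.572 and 0.460 CPM at day 3 (log2 fold change 9.93, SE 0.18, adjusted p = 2.08e-16). In each of these 3 genes both day 3 libraries sat near 0, as they did at 0 h, where Fabp4 had 1.32 and 1.42 CPM, and both day 5 libraries lay far above. Adipoq, the gene of the hormone adiponectin, had 95.4 and 76.1 CPM at day 5 and 0.0635 and 0.0658 CPM at day 3, a ratio of 1324 (95% exact counting interval 366 to 10939). Aqp7, the glycerol channel of fat cells, had 28.0 and 21.8 CPM at day 5 and 0 and 0 CPM at day 3 and was at least 256-fold higher. Pck1, which makes the glycerol backbone from pyruvate, had 12.6 and 9.73 CPM at day 5 and 0 and 0 CPM at day 3 and was at least 115-fold higher.

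Other targets were already well expressed at day 3 and rose further. Lpl, the lipase that frees fatty acids from lipoproteins, had 1589 and 1587 CPM at day 5, against 331 and 295 CPM at day 3 (log2 fold change 2.34, SE 0.10, adjusted p = 2.2e-12). Plin2, a droplet coat protein of many cell types, had 1861 and 1646 CPM at day 5 and 369 and 296 CPM at day 3 (log2 fold change 2.40, SE 0.10, adjusted p = 3.22e-12). Per gene length the order within the list turned over: at day 5 Fabp4 stood at 1961 ± 283 RPKM and Plin2 at 929 ± 80.5 RPKM, whereas at day 3 Fabp4 was at 2.46 ± 0.580 RPKM and Plin2 at 176 ± 27.4 RPKM (SD, n = 2). The insulin-responsive glucose transporter gene Slc2a4 was barely detected at day 5, with 0.186 and 0.298 CPM at day 5 and 0 and 0 CPM at day 3. It was at least 2.51-fold higher if its few day 5 counts are taken as exact. Its call (adjusted p = 0.014) was lost without either day 3 library or without day 5 replicate 2. The rise of Cidea, a droplet protein of brown fat, was likewise lost without either day 3 library (adjusted p = 0.0543 and 0.0611). It had 4.35 and 3.16 CPM at day 5 and 0.0635 and 0.132 CPM at day 3, a ratio of 38.6 (95% exact counting interval 12.9 to 189.9). The targets that fell were Klf15 (-1.48, adjusted p = 1.37e-05), Hilpda (-0.57, adjusted p = 0.00198) and Cyp4b1, which had at most 0.329 CPM in any of the 4 libraries. Retn, the gene of resistin, had 0 counts in all 4.

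Of 23 white adipocyte markers tested, many of them also among the PPARγ targets, 22 rose and none fell (median 5.60). Adig, which encodes adipogenin, had 81.9 and 69.0 CPM at day 5 and 0.0635 and 0 CPM at day 3, a ratio of 2332 (95% exact counting interval 418 to 92134). Lgals12, a galectin of fat cells, had 75.1 and 71.2 CPM at day 5 and 0.0635 and 0 CPM at day 3, a ratio of 2263 (95% exact counting interval 406 to 89418). Cfd, the gene of adipsin, had 5.03 and 3.52 CPM at day 5 and 0.0635 and 0 CPM at day 3, a ratio of 132 (95% exact counting interval 23.3 to 5246). 7 of the 23 markers had 0 to 3 counts in a group, so their part in this count was partly built in. At day 7 the late markers were higher again, with 672 and 665 CPM of Adipoq and 10089.6 and 8322 CPM of Fabp4.

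**Figure D1:**
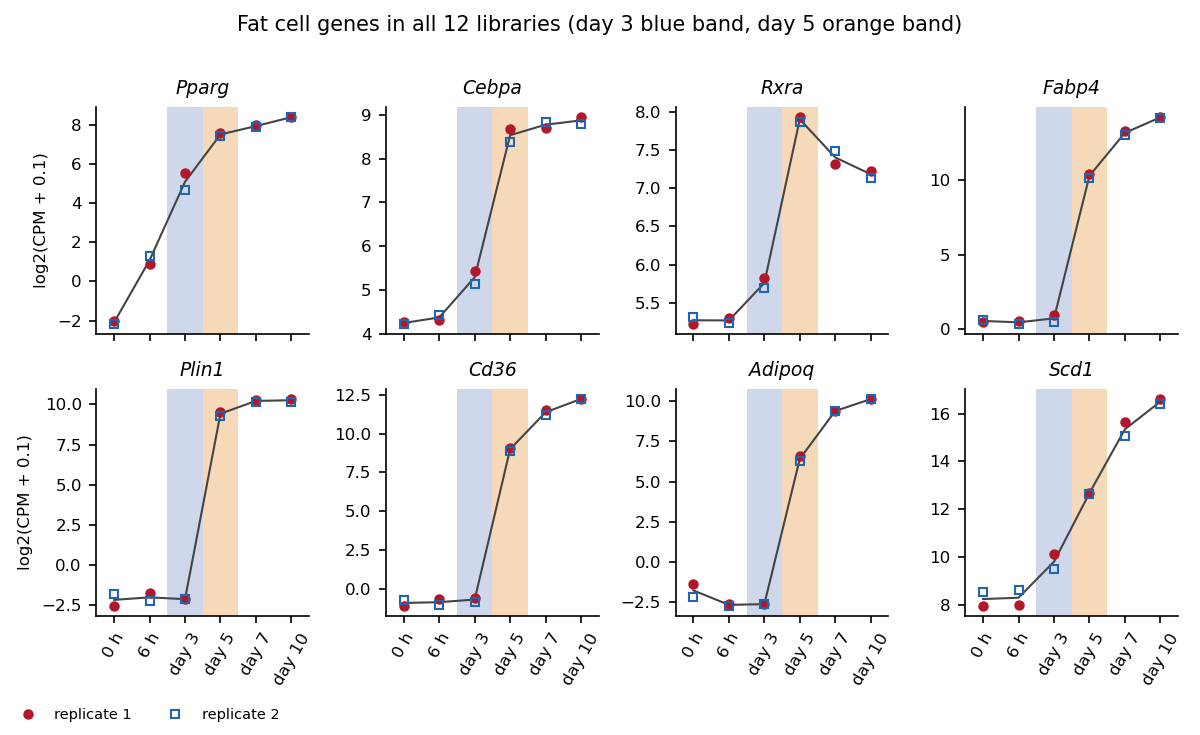
Levels of 8 fat cell genes at 6 time points, as log2 of CPM plus 0.1; points are single libraries and lines join the means of 2. Pparg climbed before day 3, whereas Fabp4, Plin1, Cd36 and Adipoq were between 76.1 and 1386 CPM at day 5, against at most 1.84 CPM at day 3.

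The promoters of these genes were searched for the letters that PPARγ and C/EBP proteins are known to bind, on both strands of windows from 250 bases before to 50 after each RefSeq start site (GRCm38.p6). The direct repeat AGGTCANAGGTCA, which holds the shorter unit AGGTCA at each end, was in 0 of 37 PPARγ target promoters and in 0.0396% of all 32851 promoters. The unit AGGTCA alone was in 9 of the 37 (24.3%), against 16.3% of all promoters and 12.4% of the promoters of tested genes. The C/EBP-like letters TTGCNNAA were in 4 of 20 white adipocyte promoters (20%) but in only 2 of 37 PPARγ target promoters (5.41%). They were in 10.8% of all promoters and 8.44% of those of tested genes. A match is a description of the letters, and its absence says only that they are not in this window. As examples with the unit and with the C/EBP-like letters, the 250 bases before the start of Aqp7 (chr4:41048137-41048386, minus strand; AGGTCA in capitals, read on the reverse strand as TGACCT) and of Plin1 (chr7:79732777-79733026, minus strand; TTGCNNAA in capitals) are shown 5′ to 3′, taken from RefSeq.
Aqp7: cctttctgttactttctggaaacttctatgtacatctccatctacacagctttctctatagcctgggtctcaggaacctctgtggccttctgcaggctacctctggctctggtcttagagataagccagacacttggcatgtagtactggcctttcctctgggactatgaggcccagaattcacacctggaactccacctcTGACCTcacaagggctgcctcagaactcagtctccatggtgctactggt
Plin1: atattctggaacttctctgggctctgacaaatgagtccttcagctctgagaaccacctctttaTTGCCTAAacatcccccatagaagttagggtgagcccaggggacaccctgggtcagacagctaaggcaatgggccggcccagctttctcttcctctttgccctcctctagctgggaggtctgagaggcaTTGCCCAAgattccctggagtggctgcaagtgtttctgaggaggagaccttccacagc
Aqp7 had its match 49 bases before the start, and Plin1 had matches 187 and 58 bases before it. These 2 genes, at 0 and at 0.127 and 0.132 CPM at day 3, were among the 12 largest rises by fitted fold change.

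Lipid droplet and lipolysis genes mostly rose. Of 18 droplet protein genes 14 rose and 3 fell (Aup1, Hilpda and Lsm14b), with a median of 2.48. Cidec, which merges droplets into large ones, had 786 and 599 CPM at day 5, against 0.953 and 0.395 CPM at day 3 (log2 fold change 9.98, SE 0.21, adjusted p = 1.29e-14; 10.75 without day 3 replicate 1). Plin4, another coat gene, had 2640.2 and 2444 CPM at day 5 and 285 and 185 CPM at day 3 (log2 fold change 3.43, SE 0.33, adjusted p = 5.86e-05). Of 16 lipolysis genes 15 rose and none fell (median 4.88, or 4.51 with bounds or ratios for the 6 genes at 0 to 3 counts). The enzymes that take triglyceride apart rose together. Pnpla2, the first lipase of the chain, had 761 and 717 CPM at day 5, against 38.3 and 51.1 CPM at day 3 (log2 fold change 4.05, SE 0.12, adjusted p = 7.01e-14). Lipe, hormone-sensitive lipase, had 295 and 249 CPM at day 5 and 10.5 and 9.93 CPM at day 3 (log2 fold change 4.73, SE 0.12, adjusted p = 3.14e-15). Mgll, monoglyceride lipase, had 729.7 and 656 CPM at day 5 and 17.5 and 10.5 CPM at day 3 (log2 fold change 5.63, SE 0.22, adjusted p = 4.56e-09). Their brake rose too. G0s2, which inhibits the Pnpla2 protein, had 50.5 and 42.0 CPM at day 5 and 0 and 0 CPM at day 3, at least 476-fold higher. Hcar1, the lactate receptor that restrains lipolysis in fat cells, had 4.85 and 3.52 CPM at day 5 and 0 and 0 CPM at day 3 and was at least 43.0-fold higher.

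Fatty acid uptake followed, with 15 of 20 genes higher and Acsl4, Acsl5 and Vldlr lower (median 1.62). Within the acyl-CoA synthetases the members moved apart. Acsl1, the main form of fat cells, had 2080.3 and 1717 CPM at day 5, against 57.7 and 43.0 CPM at day 3 (log2 fold change 5.24, SE 0.16, adjusted p = 6.39e-12), whereas Acsl4 had 226 and 299 CPM at day 5 and 603 and 491 CPM at day 3 (-1.06, adjusted p = 5.81e-06). Angptl4, a secreted inhibitor of lipoprotein lipase, had 243 and 192 CPM in the day 5 libraries and 0.635 and 0.395 CPM in the day 3 libraries (log2 fold change 8.69, SE 0.22, adjusted p = 6.11e-13). Cav1, which encodes the caveolae protein caveolin 1, was 2.15 higher (adjusted p = 1.53e-10).

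Genes that build fatty acids mostly rose. Of 24 tested, 18 rose and Elovl4 fell (median 1.44). Fasn, fatty acid synthase, had 3127 and 3232 CPM at day 5, against 172 and 179.6 CPM at day 3 (log2 fold change 4.18, SE 0.10, adjusted p = 2.56e-15). Scd1, the desaturase, had 6630.5 and 6471 CPM at day 5, against 1115 and 727 CPM at day 3 (log2 fold change 2.83, SE 0.35, adjusted p = 0.000225). Its relative Scd2 rose less on the log2 scale, with 2826 and 2818 CPM at day 5 and 1133 and 813 CPM at day 3 (log2 fold change 1.54, SE 0.19, adjusted p = 4.77e-05). Acacb, the carboxylase that sits at mitochondria, had 36.2 and 41.4 CPM at day 5 and 1.65 and 1.97 CPM at day 3 (log2 fold change 4.42, SE 0.16, adjusted p = 4.42e-13). Thrsp, a lipogenic nuclear protein gene, had 36.5 and 31.6 CPM at day 5 and 0 and 0 CPM at day 3 and was at least 350.5-fold higher.

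In triglyceride assembly 19 of 24 genes rose and 4 fell (median 2.30). Gpd1, which makes glycerol 3-phosphate, had 2351 and 1883 CPM at day 5, against 9.84 and 8.03 CPM at day 3 (log2 fold change 7.89, SE 0.15, adjusted p = 3.78e-16). Agpat2, the acyltransferase mutated in inherited fat loss, had 1726 and 1441 CPM at day 5 and 35.6 and 29.6 CPM at day 3 (log2 fold change 5.60, SE 0.12, adjusted p = 6.32e-16). Pcx, pyruvate carboxylase, had 1423 and 1237 CPM at day 5 and 20.8 and 17.4 CPM at day 3 (log2 fold change 6.12, SE 0.18, adjusted p = 8.87e-12). Those that fell were Agpat4, Lpin2, Lpin3 and Pck2, and the last is a mitochondrial enzyme that also stands among the stress genes below. Cholesterol genes rose in 22 of 30 cases and fell in 3 (Sqle, Sc5d and Npc1), with a median of 1.52. Hmgcs1, an early enzyme of sterol synthesis, had 657 and 583 CPM at day 5 and 65.9 and 58.5 CPM at day 3 (log2 fold change 3.32, SE 0.21, adjusted p = 1e-06). Abcg1, a sterol exporter and LXR target, had 161 and 152 CPM at day 5 and 14.2 and 11.7 CPM at day 3 (log2 fold change 3.59, SE 0.11, adjusted p = 4.43e-14).

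Nuclear genes of the mitochondrial respiratory chain and ATP synthase rose almost without exception. Of 54 tested, 53 rose and none fell, with a median of 1.89. The exception, Atp5l, had few counts for so basic a gene and may share reads with near-identical copies. Atp5a1, the catalytic α subunit of ATP synthase, had 2811 and 2456 CPM at day 5, against 705 and 616 CPM at day 3 (log2 fold change 2.00, SE 0.09, adjusted p = 5.55e-12). Cox4i1, a subunit of cytochrome c oxidase, had 1052 and 894 CPM at day 5 and 319.7 and 291 CPM at day 3 (log2 fold change 1.67, SE 0.09, adjusted p = 3.4e-11). Most members moved by a similar amount, and Cox8b, a muscle and brown fat form of a cytochrome c oxidase subunit, stood apart with 29.8 and 29.8 CPM at day 5 and 0 and 0.0658 CPM at day 3, a ratio of 923 (95% exact counting interval 165 to 36504). The table held no gene of the mitochondrial genome.

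Enzymes that feed the chain rose as broadly. In fatty acid oxidation 26 of 28 genes rose and Acot2 fell (median 2.22). Acadm, medium-chain acyl-CoA dehydrogenase, had 1761 and 1586 CPM at day 5, against 68.2 and 57.3 CPM at day 3 (log2 fold change 4.74, SE 0.10, adjusted p = 6.82e-16). Cpt2, which hands fatty acids over inside mitochondria, had 184 and 159 CPM at day 5 and 18.3 and 18.3 CPM at day 3 (log2 fold change 3.23, SE 0.10, adjusted p = 7.01e-14). The entry step moved less, with 149 and 151 CPM at day 5 and 60.1 and 55.7 CPM at day 3 for Cpt1a (log2 fold change 1.37, SE 0.08, adjusted p = 1.81e-10). In the tricarboxylic acid cycle and pyruvate entry 29 of 31 genes rose (median 1.88). Cs, citrate synthase, had 1815 and 1617 CPM at day 5 and 264 and 243 CPM at day 3 (log2 fold change 2.76, SE 0.09, adjusted p = 7.65e-14). Idh1, a cytosolic source of NADPH, had 3241 and 3075 CPM at day 5 and 339.9 and 163 CPM at day 3 (log2 fold change 3.65, SE 0.37, adjusted p = 0.000108; 4.27 without day 3 replicate 1). The pyruvate dehydrogenase kinases split: Pdk1 rose by 3.03 and Pdk4, a PPAR target in several tissues, by 0.99, whereas Pdk3 and the phosphatase gene Pdp1 fell.

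Peroxisomal genes rose in 36 of 40 cases and fell in 3 (median 1.74). Acaa1b, a peroxisomal thiolase, had 186 and 156 CPM at day 5, against 1.27 and 1.45 CPM at day 3 (log2 fold change 6.97, SE 0.14, adjusted p = 6.32e-16). Pex11a, which makes peroxisomes divide, had 60.5 and 48.7 CPM at day 5 and 3.81 and 3.95 CPM at day 3 (log2 fold change 3.81, SE 0.16, adjusted p = 5.43e-12). The genes that fell, Agps, Far1 and Pecr, include 2 enzymes of ether lipid synthesis. In glycolysis 17 of 21 genes rose and 3 fell (median 1.16). The members that fell were Slc2a1, the basal glucose transporter, with Pfkfb3 and Eno2. Aldoa, the main aldolase, had 2698 and 2445 CPM at day 5 and 609 and 538 CPM at day 3 (log2 fold change 2.17, SE 0.09, adjusted p = 2.68e-12).

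Branched-chain amino acid catabolism rose in 22 of 24 genes (median 1.50), and the mitochondrial and cytosolic forms of its first enzyme moved apart. Bcat2, the mitochondrial aminotransferase of fat and muscle, had 67.6 and 59.9 CPM at day 5 and 10.9 and 15.5 CPM at day 3 (log2 fold change 2.28, SE 0.13, adjusted p = 2.01e-10). Bcat1, the cytosolic form found in many tumours, had 1.68 and 1.97 CPM at day 5, against 54.3 and 58.8 CPM at day 3 (log2 fold change -4.95, SE 0.14, adjusted p = 2.92e-14). The groups did not overlap in either gene, and the changes ran in opposite directions. The other member that fell was Ppm1k, the phosphatase that activates the next enzyme complex. Of 11 brown and beige fat genes tested 8 rose and Dio2 fell, among 26 listed, and with a filter at a mean of 1 CPM none fell. Ucp1, the defining gene of heat production, had 0 counts in the 4 libraries and was not tested, as were Prdm16 and Elovl3.

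**Figure D2:**
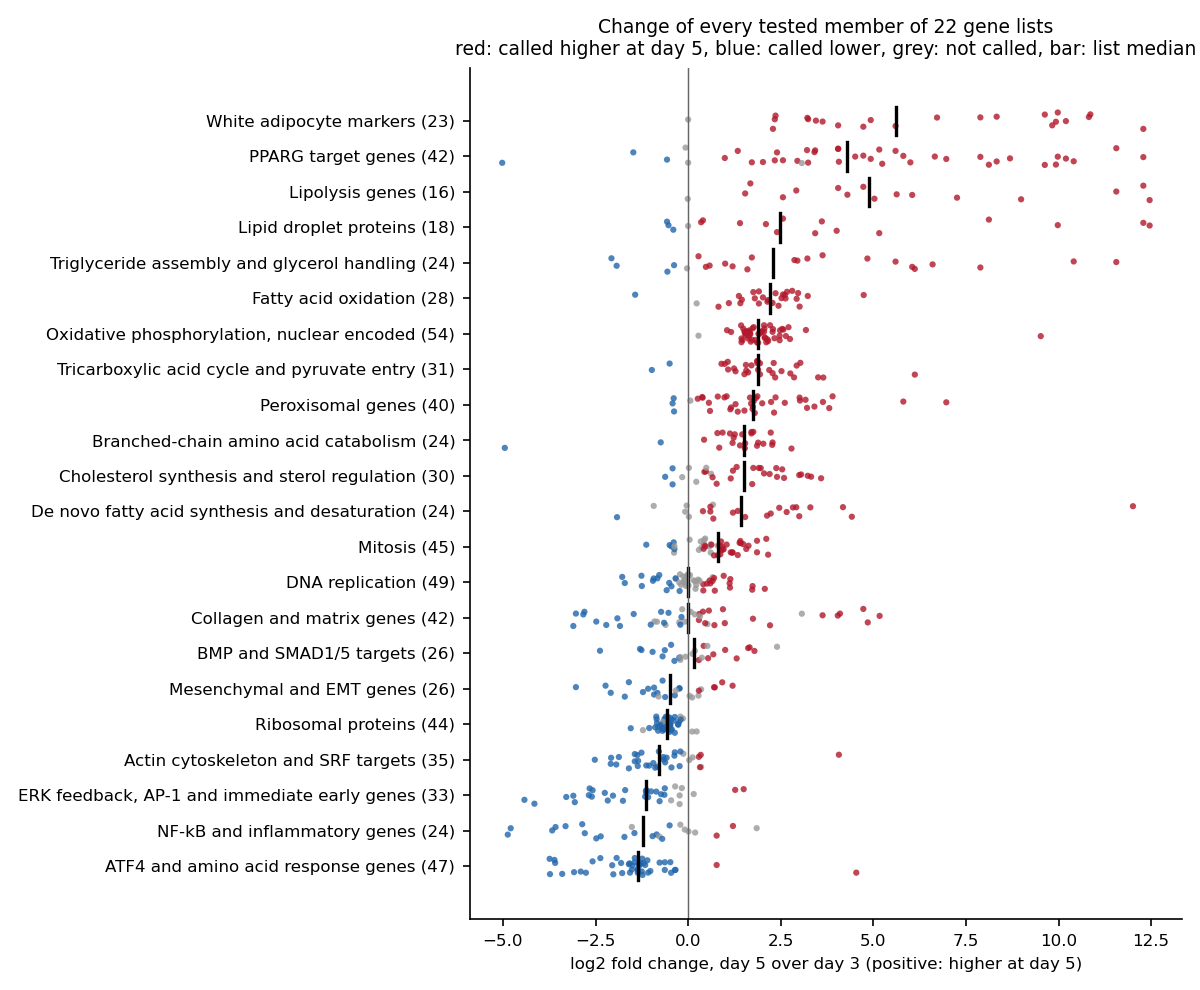
Log2 fold change, day 5 over day 3, of every tested member of 22 lists; each point is a gene, red if called higher at day 5, blue if called lower and grey otherwise, and the bar is the list's median. Fat and mitochondrial lists lie right of 0, with medians of 1.44 to 5.60, and the stress, growth signal and actin lists lie left of it.

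Secreted proteins and hormone handling changed in part. Of 22 adipokines and other secreted proteins 16 rose and 2 fell, and the count of lower genes was 1 without day 5 replicate 2 and 0 with a filter at a mean of 1 CPM. Igf1, the growth factor, had 71.6 and 76.2 CPM at day 5 and 1.97 and 1.12 CPM at day 3 (log2 fold change 5.57, SE 0.31, adjusted p = 3.58e-07). Nampt, an enzyme of NAD synthesis that is also secreted, had 1470.4 and 1449 CPM at day 5 and 178 and 151 CPM at day 3 (log2 fold change 3.15, SE 0.09, adjusted p = 2.07e-14). Rarres2, the gene of chemerin, had 9.45 and 6.92 CPM at day 5 and 0 and 0.0658 CPM at day 3, a ratio of 252 (95% exact counting interval 44.9 to 10009). Il6 was among those that fell, with 0 and 0.119 CPM at day 5 and 1.91 and 1.91 CPM at day 3, a ratio of day 3 over day 5 of 31.3 (95% exact counting interval 8.29 to 265). In insulin and IGF signalling 13 of 26 genes rose and 4 fell (median 1.12, or 0.29 with bounds or ratios for genes at 0 to 3 counts). The receptor gene Insr was not called, with 106 and 119 CPM at day 5 and 104 and 109 CPM at day 3 (adjusted p = 0.404), and Igf1r fell (log2 fold change -1.57, adjusted p = 2.7e-05).

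In glucocorticoid handling 7 of 14 genes rose and 4 fell, and the enzymes that make and destroy the active hormone rose side by side. Hsd11b1, which activates glucocorticoids in fat, had 109 and 107 CPM at day 5, against 0.826 and 0.789 CPM at day 3 (log2 fold change 7.05, SE 0.15, adjusted p = 6.82e-16). Hsd11b2, which inactivates them, had 11.2 and 12.1 CPM at day 5 and 0 and 0 CPM at day 3 and was at least 120.3-fold higher. Hsd11b2 was lower again at day 7, with 3.95 and 4.38 CPM. The classical target genes were split: Fkbp5, Sgk1 and Dusp1 were lower at day 5, Tsc22d3 and Mt1 were higher, and Per1 and Mt2 were not called. Among antioxidant and detoxification enzymes 16 of 31 rose and 8 fell. Ephx2, soluble epoxide hydrolase, had 259 and 233 CPM at day 5 and 0.508 and 0.197 CPM at day 3 (log2 fold change 9.40, SE 0.16, adjusted p = 1.79e-16; 10.23 without day 3 replicate 1), and Cat, catalase, had 989 and 825 CPM at day 5 and 124 and 99.6 CPM at day 3 (log2 fold change 3.02, SE 0.12, adjusted p = 3.7e-12).

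Genes of the amino acid and stress response governed by ATF4 moved the other way. ATF4 is a transcription factor that cells make more of when amino acids run short or unfolded protein builds up, and its targets import and make amino acids and load them onto transfer RNA. This list of 48 genes was written after some of its members had been seen to fall, so its count is a description. Of 47 tested, 45 were called lower and 2 higher, with a median of -1.36. Atf4 itself had 434 and 381 CPM at day 5, against 891 and 933 CPM at day 3 (log2 fold change -1.16, SE 0.09, adjusted p = 5.49e-09). Slc7a11, the cystine importer, had 8.20 and 9.31 CPM at day 5 and 114 and 118 CPM at day 3 (log2 fold change -3.73, SE 0.22, adjusted p = 7.36e-08). Slc6a9, a glycine transporter, had 10.6 and 10.7 CPM at day 5 and 114 and 146 CPM at day 3 (log2 fold change -3.61, SE 0.14, adjusted p = 3.11e-12). In all 3 genes both day 5 libraries lay below both day 3 libraries. Pycr1, of proline synthesis, had 0.746 and 1.49 CPM at day 5 and 12.9 and 17.3 CPM at day 3 (log2 fold change -3.74, SE 0.26, adjusted p = 1.81e-09). Chac1, which breaks down glutathione, had 18.8 and 16.0 CPM at day 5 and 65.4 and 79.0 CPM at day 3 (log2 fold change -2.05, SE 0.15, adjusted p = 9.29e-09). Eprs, a transfer RNA synthetase, had 418 and 411 CPM at day 5 and 1038 and 1048 CPM at day 3 (log2 fold change -1.33, SE 0.07, adjusted p = 1.84e-11). The 2 members that rose were Slc1a5, a glutamine transporter, with 407 and 346 CPM at day 5 and 16.3 and 16.2 CPM at day 3 (4.54, adjusted p = 3.69e-15), and Psat1, of serine synthesis (0.77, adjusted p = 2.36e-07).

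Most of these genes were also higher at day 3 than at 0 h. At 0 h Ddit3 had 9.62 and 9.64 CPM, Trib3 5.21 and 5.19 CPM and Atf4 349.8 and 352 CPM. From 0 h to day 3, 36 of the 47 genes were higher and 6 lower (33.1% and 35.0% of all genes), with a median of 0.96. This step and the next share the day 3 libraries.

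The letters TTGCATCA, which C/EBP and ATF proteins bind as a pair, were looked for after the list had been seen to fall. They were in 12 of 45 promoters of the list (26.7%), against 0.895% of all promoters and 0.588% of the promoters of tested genes. The 12 genes were Aars, Atf3, Chac1, Herpud1, Iars, Nupr1, Pycr1, Slc1a4, Slc7a11, Tars, Vldlr and Yars. Each was lower at day 5, as were 45 of the 47 genes tested in the list. Among all genes with a fall of at least 2-fold 20 of 1306 promoters held the letters (1.53%), and among those with a rise of at least 2-fold 9 of 1983 (0.454%). Genes of the list that fell at least 2-fold, such as Slc7a11 and Pycr1, are among these 20, so the 1.53% is not separate from the list. These letters do not match TTGCNNAA. The 250 bases before the start are shown for 3 of the 12, 5′ to 3′ from RefSeq (GRCm38.p6), with the letters in capitals (TGATGCAA where they lie on the reverse strand): Slc7a11 (chr3:50443614-50443863, minus strand), Chac1 (chr2:119350992-119351241, plus strand) and Pycr1 (chr11:120643749-120643998, minus strand).
Slc7a11: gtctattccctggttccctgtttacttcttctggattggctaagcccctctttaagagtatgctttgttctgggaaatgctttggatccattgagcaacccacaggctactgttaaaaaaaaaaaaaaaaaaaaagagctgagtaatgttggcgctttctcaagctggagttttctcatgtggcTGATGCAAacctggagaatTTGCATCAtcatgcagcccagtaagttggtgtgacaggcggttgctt
Chac1: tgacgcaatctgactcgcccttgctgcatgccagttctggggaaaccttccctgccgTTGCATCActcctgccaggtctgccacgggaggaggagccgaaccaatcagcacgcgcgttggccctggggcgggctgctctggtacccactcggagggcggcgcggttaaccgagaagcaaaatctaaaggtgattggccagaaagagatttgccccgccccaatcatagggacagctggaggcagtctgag
Pycr1: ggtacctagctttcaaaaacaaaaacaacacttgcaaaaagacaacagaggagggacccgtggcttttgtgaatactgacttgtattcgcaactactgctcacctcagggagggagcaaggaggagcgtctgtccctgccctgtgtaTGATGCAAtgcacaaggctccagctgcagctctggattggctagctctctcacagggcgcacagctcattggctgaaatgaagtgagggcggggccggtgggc
Slc7a11 held the letters on both strands, 66 and 47 bases before its start, Chac1 193 and Pycr1 103 bases before it.

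In the wider list of heat shock and endoplasmic reticulum stress 11 of 31 genes rose and 13 fell. Hspa5, the reticulum chaperone BiP, had 583 and 573 CPM at day 5 and 1165 and 1702 CPM at day 3 (log2 fold change -1.31, SE 0.14, adjusted p = 5.81e-06), whereas Dnajb9, a chaperone gene of the IRE1 branch, had 211 and 205 CPM at day 5 and 37.7 and 36.4 CPM at day 3 (log2 fold change 2.49, SE 0.08, adjusted p = 1.15e-13). Genes of cytosolic ribosomes were lower in 38 of 44 cases and higher in none (median -0.56). Rpl4 had 994 and 1008 CPM at day 5 and 1841 and 1876 CPM at day 3 (log2 fold change -0.89, SE 0.07, adjusted p = 7.78e-09), and Rps3 had 782 and 753 CPM at day 5 and 1269 and 1223 CPM at day 3 (log2 fold change -0.70, SE 0.07, adjusted p = 1.49e-07). Ribosomal protein genes have many processed copies in the genome, and Rpl3, Rps13 and Rpl38 had too few counts for genes of this kind, so their values are uncertain. Between 31 (without day 5 replicate 2) and 40 (upper-quartile scaling) of the list fell under the alternatives, and none rose. Among nuclear noncoding RNAs 7 of 11 fell and 1 rose (2 rose without day 5 replicate 1). Gas5 and Snhg1, which host small nucleolar RNAs, fell, with log2 fold changes of -1.34 and -1.63. Malat1 had 20111 and 23141 CPM at day 5 and 26609 and 26140.3 CPM at day 3, and its call (-0.29, adjusted p = 0.0117) was lost without day 5 replicate 1 (adjusted p = 0.115) or when only the 4 libraries compared were fitted (adjusted p = 0.133).

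Genes switched on by growth factor signalling through ERK fell. In the list of ERK feedback, AP-1 and immediate early genes 25 of 33 fell and 2 rose (median -1.13). Spry1, a feedback inhibitor, had 4.04 and 5.43 CPM at day 5, against 89.0 and 114 CPM at day 3 (log2 fold change -4.42, SE 0.23, adjusted p = 5.48e-09). Etv4, an ETS factor induced by ERK, had 2.80 and 3.28 CPM at day 5 and 29.4 and 30.2 CPM at day 3 (log2 fold change -3.29, SE 0.13, adjusted p = 7.12e-13). Areg, the growth factor amphiregulin, had 4.29 and 5.19 CPM at day 5 and 85.5 and 83.5 CPM at day 3 (log2 fold change -4.15, SE 0.15, adjusted p = 4.03e-13). The groups lay far apart in these 3 genes. The members that rose were Spry2 (1.50, adjusted p = 8.18e-08) and Spry4 (1.27, adjusted p = 0.000446), relatives of Spry1. In the list of G1 cyclins and Myc 13 of 20 fell and 5 rose (median -0.56). Myc had 19.9 and 19.4 CPM at day 5 and 99.5 and 149.5 CPM at day 3 (log2 fold change -2.66, SE 0.16, adjusted p = 1.9e-08). Ccnd1, cyclin D1, had 104 and 117 CPM at day 5 and 442 and 465 CPM at day 3 (log2 fold change -2.03, SE 0.12, adjusted p = 2.56e-09), while Ccnd2 had 3.29 and 3.16 CPM at day 5 and 0 and 0.197 CPM at day 3, a ratio of 33.3 (95% exact counting interval 11.1 to 164). The members that fell also held the nucleolar genes Npm1, Ncl, Nop56 and Nop58.

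Inflammatory genes were mostly lower. Of 24 tested, 15 fell and 2 rose, namely Nfkbia and Ccl7 (median -1.21). Ptgs2, cyclooxygenase 2, had 15.2 and 18.9 CPM at day 5, against 221 and 214 CPM at day 3 (log2 fold change -3.67, SE 0.10, adjusted p = 9.34e-15). Csf1, the macrophage growth factor, had 109.6 and 127 CPM at day 5 and 751 and 971 CPM at day 3 (log2 fold change -2.86, SE 0.15, adjusted p = 9.25e-09). Cxcl5, a neutrophil chemokine, had 12.2 and 15.6 CPM at day 5 and 189 and 144 CPM at day 3 (log2 fold change -3.58, SE 0.17, adjusted p = 1.28e-08). Interferon genes did not move one way, with 12 of 39 higher and 10 lower, and the count of lower genes was 6 without day 3 replicate 1.

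**Figure D3:**
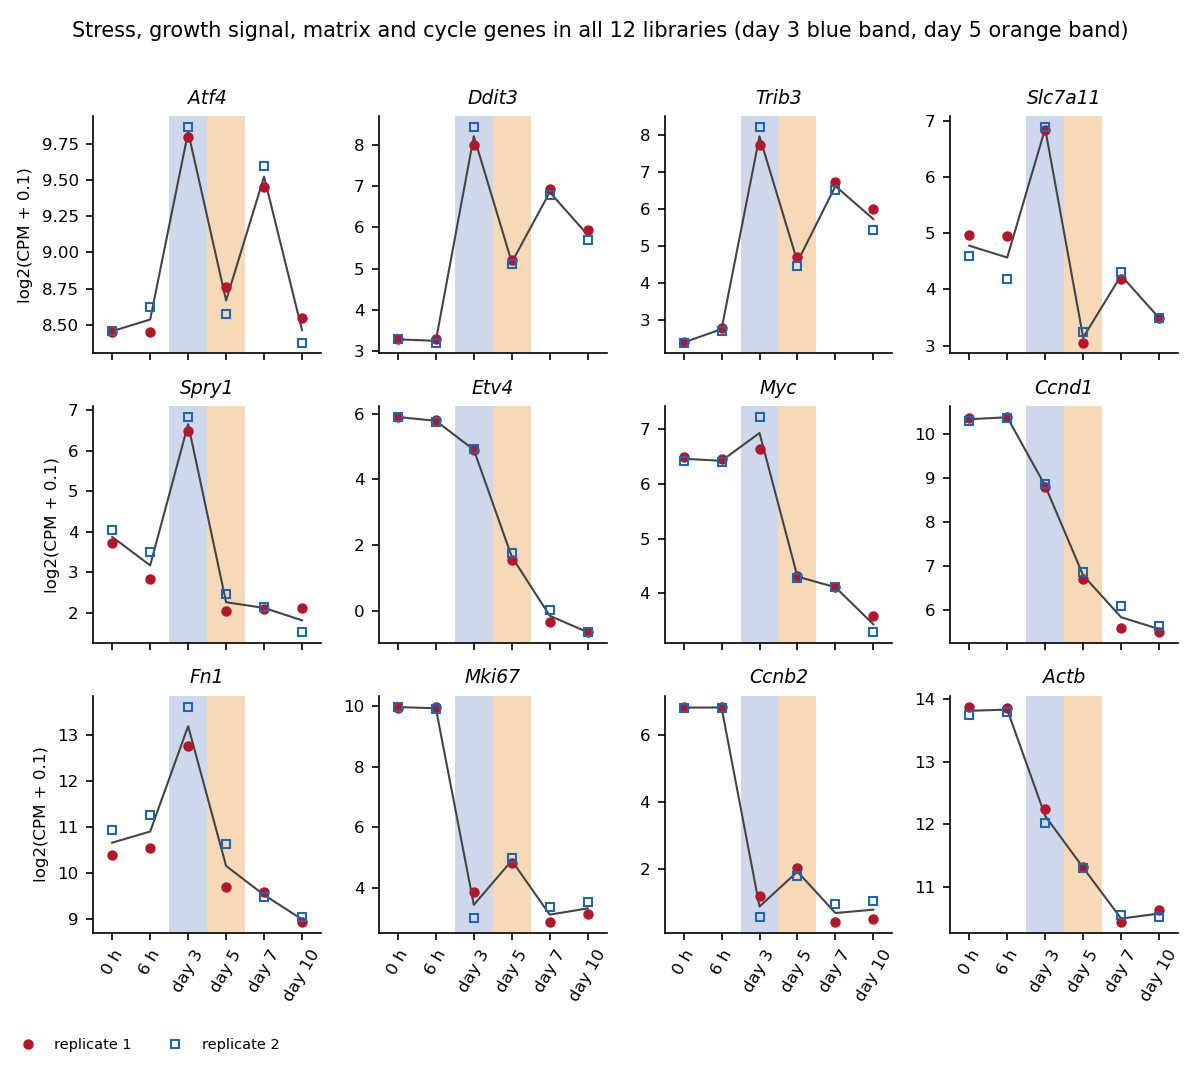
Levels of 12 genes at 6 time points, as log2 of CPM plus 0.1; points are single libraries and lines join the means of 2. Ddit3, Trib3, Slc7a11, Spry1 and Fn1 were highest at day 3 among the 6 times, and Mki67 and Ccnb2 were higher at day 5 than at day 3 but far below 0 h.

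Genes of the actin cytoskeleton mostly fell. Of 35 genes of actin and its serum response factor programme 27 fell and 4 rose (median -0.79). Actb, β-actin, had 2557 and 2521 CPM at day 5, against 4853 and 4176 CPM at day 3 (log2 fold change -0.83, SE 0.09, adjusted p = 6.08e-07). Acta2, smooth muscle actin, had 242 and 262 CPM at day 5 and 1281 and 866 CPM at day 3 (log2 fold change -2.09, SE 0.29, adjusted p = 0.000439). Tpm2, a tropomyosin, went against the list with 19.4 and 18.9 CPM at day 5 and 1.33 and 0.921 CPM at day 3 (log2 fold change 4.07, SE 0.31, adjusted p = 2.94e-08). Of 25 targets of YAP and TEAD 12 fell and 6 rose. Ccn2, the connective tissue growth factor, had 10.4 and 12.8 CPM at day 5 and 151 and 108 CPM at day 3 (log2 fold change -3.48, SE 0.30, adjusted p = 2.94e-05). Ankrd1 had 24.6 and 31.1 CPM at day 5 and 364 and 324 CPM at day 3 (log2 fold change -3.63, SE 0.14, adjusted p = 1.26e-10). From 0 h to day 3, 31 of the 35 actin genes had already fallen, against 35.0% of all genes (median -1.14).

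Mesenchymal genes were lower in 15 of 26 cases and higher in 5 (median -0.49), and the count of higher genes was 3 without day 5 replicate 2. Axl, a receptor kinase of invasive cells, had 221 and 228 CPM at day 5, against 1074 and 1036 CPM at day 3 (log2 fold change -2.23, SE 0.10, adjusted p = 3.26e-12). Cd44, the hyaluronan receptor, had 54.1 and 61.4 CPM at day 5 and 197 and 180.2 CPM at day 3 (log2 fold change -1.71, SE 0.08, adjusted p = 6.39e-12). Cdh2, N-cadherin, had 101 and 112 CPM at day 5 and 191 and 187 CPM at day 3 (log2 fold change -0.83, SE 0.07, adjusted p = 2.64e-08). S100a4 was higher, with 2052 and 2017 CPM at day 5 and 1059 and 711 CPM at day 3 (log2 fold change 1.20, SE 0.20, adjusted p = 0.000532). Fn1, fibronectin, had 823 and 1576 CPM at day 5 and 6988 and 12600.0 CPM at day 3 (log2 fold change -3.03, SE 0.47, adjusted p = 0.0013). Replicate 2 was the higher library at both times and the replicates lay far apart, yet the groups did not overlap. Of 11 epithelial genes tested, among 27 listed, 6 rose and 4 fell, and the count of lower genes was 2 without day 3 replicate 2 or day 5 replicate 1. Krt15 and Krt14, keratins of basal cells, were among those that rose, and Krt5 and Krt17, also of basal cells, did not pass the filter. Krt15 had 296 and 298 CPM at day 5 and 1.65 and 0.724 CPM at day 3 (log2 fold change 7.95, SE 0.21, adjusted p = 2.19e-12; 8.67 without day 3 replicate 1). Krt14 had 536 and 448 CPM at day 5 and 28.8 and 15.5 CPM at day 3 (log2 fold change 4.47, SE 0.30, adjusted p = 6.59e-06). Krt7, a keratin of simple epithelia, fell with 27.0 and 29.8 CPM at day 5 and 230.3 and 151 CPM at day 3 (log2 fold change -2.74, SE 0.22, adjusted p = 6.26e-06). The other epithelial genes that rose were Krt8, Epcam, Tjp3 and Esrp2, and the others that fell were Krt18, Cldn3 and Dsp. Of 10 mammary luminal and milk genes 4 rose and 4 fell.

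Matrix genes moved both ways. Of 42 collagen and matrix genes 16 rose and 15 fell (median -0.01). Col6a3, a chain of the collagen VI of fat tissue, had 1874 and 1762 CPM at day 5, against 89.0 and 48.2 CPM at day 3 (log2 fold change 4.73, SE 0.26, adjusted p = 5.19e-07). Col6a1, its partner chain, had 6801 and 5852 CPM at day 5 and 2076 and 1687 CPM at day 3 (log2 fold change 1.75, SE 0.33, adjusted p = 0.0027). Thbs1, thrombospondin 1, fell with 1631 and 1598 CPM at day 5 and 3484 and 3039 CPM at day 3 (log2 fold change -1.01, SE 0.10, adjusted p = 1.51e-07). Col1a1, the main fibrillar collagen of fibroblasts, was low throughout with 3.60 and 3.28 CPM at day 5 and 1.91 and 2.89 CPM at day 3 and was not called. Of 27 protease and invasion genes 9 rose and 11 fell. Adam12, a membrane protease, had 189.6 and 177 CPM at day 5 and 4.89 and 5.13 CPM at day 3 (log2 fold change 5.19, SE 0.10, adjusted p = 2.23e-16), and Timp3, a protease inhibitor of the matrix, had 122 and 153 CPM at day 5 and 1269.9 and 1772 CPM at day 3 (log2 fold change -3.47, SE 0.19, adjusted p = 1.42e-07). Of 26 genes of TGF-β signalling 12 fell and 5 rose. Smad3, its transducer, had 31.4 and 30.8 CPM at day 5 and 142 and 169 CPM at day 3 (log2 fold change -2.32, SE 0.12, adjusted p = 1.72e-10), and the receptor gene Tgfbr2 had 606 and 641 CPM at day 5 and 259.6 and 198 CPM at day 3 (log2 fold change 1.44, SE 0.12, adjusted p = 3.6e-07).

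BMP2 was in the medium at both times, and the targets of its pathway were split. Of 26 tested 9 rose and 9 fell, close to the shares over all genes. Id3, an inhibitor of helix-loop-helix factors, had 239 and 207 CPM at day 5, against 84.2 and 60.6 CPM at day 3 (log2 fold change 1.62, SE 0.13, adjusted p = 1.83e-07). Id1, the usual readout of BMP signalling, had 87.1 and 83.3 CPM at day 5 and 78.8 and 71.4 CPM at day 3 (adjusted p = 0.0585), and it was called without day 3 replicate 1 (0.26, adjusted p = 0.0285). Smad6 and Smad7, feedback inhibitors of the pathway, moved apart by 0.54 (adjusted p = 0.00016) and -0.37 (adjusted p = 0.000182). Of 11 receptors and other signalling genes 6 fell and 2 rose. Bmpr1a, the receptor tied to the fat lineage, had 869 and 896 CPM at day 5 and 523 and 457 CPM at day 3 (log2 fold change 0.85, SE 0.08, adjusted p = 5.8e-08), and Bmp4, a ligand, had 11.1 and 12.0 CPM at day 5 and 113 and 120.1 CPM at day 3 (log2 fold change -3.33, SE 0.12, adjusted p = 3.41e-13). Bmpr2 had 125 and 199 CPM at day 5 and 149.7 and 163 CPM at day 3 and was not called.

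Genes of the bone lineage, another fate that BMP2 can open, did not move one way. Of 14 bone and cartilage genes tested, among 27 listed, 3 rose and 5 fell. The rise of Comp, counted among the 3, was not called with no filter, by DESeq2, with a replicate block or with any library left out. Spp1, osteopontin, which many cell types make, had 1798 and 1994 CPM at day 5, against 9139.8 and 8711 CPM at day 3 (log2 fold change -2.23, SE 0.15, adjusted p = 4.73e-08). Runx2, the bone regulator, had 21.9 and 33.2 CPM at day 5 and 38.4 and 46.9 CPM at day 3, and its call (-0.63, adjusted p = 0.0174) was lost without day 3 replicate 2 (adjusted p = 0.117) or day 5 replicate 1 (adjusted p = 0.102). Sp7 and Bglap, which mark osteoblasts, did not pass the filter. Wnt pathway genes were split 7 higher to 8 lower of 22. Wnt7b had 9.07 and 9.01 CPM at day 5 and 66.9 and 85.5 CPM at day 3 (log2 fold change -3.07, SE 0.15, adjusted p = 2.34e-10), and Ccn4, a Wnt target, had 10.8 and 10.4 CPM at day 5 and 154 and 153 CPM at day 3 (log2 fold change -3.85, SE 0.15, adjusted p = 5.52e-11). Of 17 Notch genes 8 rose and 3 fell. Mfng, a glycosyltransferase that tunes Notch receptors, had 16.2 and 16.2 CPM at day 5 and 0 and 0 CPM at day 3 and was at least 167-fold higher.

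Hypoxia genes rose in 11 of 22 cases and fell in 8, against 34.0% and 31.0% of all genes. Bnip3 had 104 and 108 CPM at day 5 and 23.8 and 19.5 CPM at day 3 (log2 fold change 2.29, SE 0.22, adjusted p = 2.14e-05), whereas Ero1a, an oxidase of the reticulum, had 157 and 163 CPM at day 5 and 493 and 633 CPM at day 3 (log2 fold change -1.81, SE 0.24, adjusted p = 0.000256). Of 17 clock genes 5 rose and 4 fell, smaller shares than over all genes. The hour of harvest is not given in the labels.

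Most genes of mitosis rose, against 34.0% of all genes, but the summed level of the list overlapped between the groups. It was 463.6 and 485.0 CPM at day 5 and 463.7 and 377.8 CPM at day 3. Of 45 mitosis genes, all tested, 28 rose and 5 fell (median 0.80), and the count of lower genes was 3 without day 3 replicate 1 or without day 5 replicate 1. Mki67, the Ki-67 gene, had 28.0 and 31.5 CPM at day 5, against 14.4 and 7.96 CPM at day 3 (log2 fold change 1.41, SE 0.24, adjusted p = 0.000682). Plk1, a mitotic kinase, had 2.05 and 2.21 CPM at day 5 and 0.699 and 0.460 CPM at day 3 (log2 fold change 1.86, SE 0.31, adjusted p = 4.98e-05). Top2a, topoisomerase 2, had 42.0 and 42.7 CPM at day 5 and 40.3 and 26.5 CPM at day 3 and was not called (adjusted p = 0.0787), although it was without day 3 replicate 1 (0.68, adjusted p = 6.06e-05), by DESeq2 (0.33, adjusted p = 0.0282) and with no filter (0.32, adjusted p = 0.00322). At 0 h Mki67 had 988 and 1008 CPM, far above both day 5 and day 3. From 0 h to day 3 all 45 genes had fallen, against 35.0% of all genes (median -6.18). From day 5 to day 7 36 fell again, against 18.8% of all genes (median -1.15). Of 49 DNA replication genes 15 rose and 13 fell, close to the shares over all genes (median 0.00). Ccne1, cyclin E1, had 6.65 and 8.65 CPM at day 5 and 2.29 and 2.30 CPM at day 3 (log2 fold change 1.74, SE 0.19, adjusted p = 5e-07), and Dut, which keeps uracil out of DNA, had 19.2 and 18.6 CPM at day 5 and 56.6 and 73.7 CPM at day 3 (log2 fold change -1.78, SE 0.11, adjusted p = 6.25e-10). Of 21 inhibitors and quiescence genes 9 rose and 7 fell. Cdkn2c, the kinase inhibitor p18, had 159 and 164 CPM at day 5 and 53.9 and 43.6 CPM at day 3 (log2 fold change 1.73, SE 0.09, adjusted p = 2.66e-11), and Cdkn1a, p21, had 21.7 and 23.6 CPM at day 5 and 31.4 and 40.5 CPM at day 3 (log2 fold change -0.66, SE 0.13, adjusted p = 0.000412).

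Among the 3 motifs given here, the CHR letters set the mitosis promoters apart most from the replication promoters in this description. The CHR letters TTTGAA, bound by the complex that times mitotic genes, were in 31 of 40 mitosis promoters (77.5%), against 17.9% of all promoters and 12.1% of those of tested genes. They were in 7 of 50 replication promoters (14%). CCAAT, bound by NF-Y, was also in 31 of 40 mitosis promoters (77.5%), against 37.4% and 38.1%, and in 30 of 50 replication promoters (60%). CHR and CCAAT letters together were found in 28 of 40 mitosis promoters (70%), against 6.95% of all promoters and 5 of 50 replication promoters (10%). The E2F letters TTNGCGC were in 17 of 50 replication promoters (34%) and 9 of 40 mitosis promoters (22.5%), against 6.36% of all promoters. None of these 3 motifs contains another. The 250 bases before the start are shown for Mki67 (chr7:135716380-135716629, minus strand) and Ccnb2, a mitotic cyclin gene (chr9:70421555-70421804, minus strand), 5′ to 3′ from RefSeq (GRCm38.p6), with the CHR and CCAAT letters in capitals on whichever strand they lie.
Mki67: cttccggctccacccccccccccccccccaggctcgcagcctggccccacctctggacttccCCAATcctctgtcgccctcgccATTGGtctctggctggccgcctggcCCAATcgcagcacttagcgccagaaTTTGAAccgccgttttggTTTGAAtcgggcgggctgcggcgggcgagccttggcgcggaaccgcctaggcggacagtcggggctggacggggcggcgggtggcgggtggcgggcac
Ccnb2: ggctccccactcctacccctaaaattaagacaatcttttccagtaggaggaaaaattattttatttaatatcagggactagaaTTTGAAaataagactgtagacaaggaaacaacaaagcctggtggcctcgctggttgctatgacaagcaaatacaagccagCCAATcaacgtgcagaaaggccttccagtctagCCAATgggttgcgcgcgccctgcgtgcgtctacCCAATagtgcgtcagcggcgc
In Mki67 the CCAAT letters lay 188, 166 and 141 bases and the CHR letters 116 and 98 bases before the start. In Ccnb2 the CHR letters lay 167 and the CCAAT letters 87, 54 and 21 bases before it, and Ccnb2 had 4.04 and 3.40 CPM at day 5 and 2.22 and 1.38 CPM at day 3 (log2 fold change 1.04, SE 0.23, adjusted p = 0.000745).

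**Figure D4:**
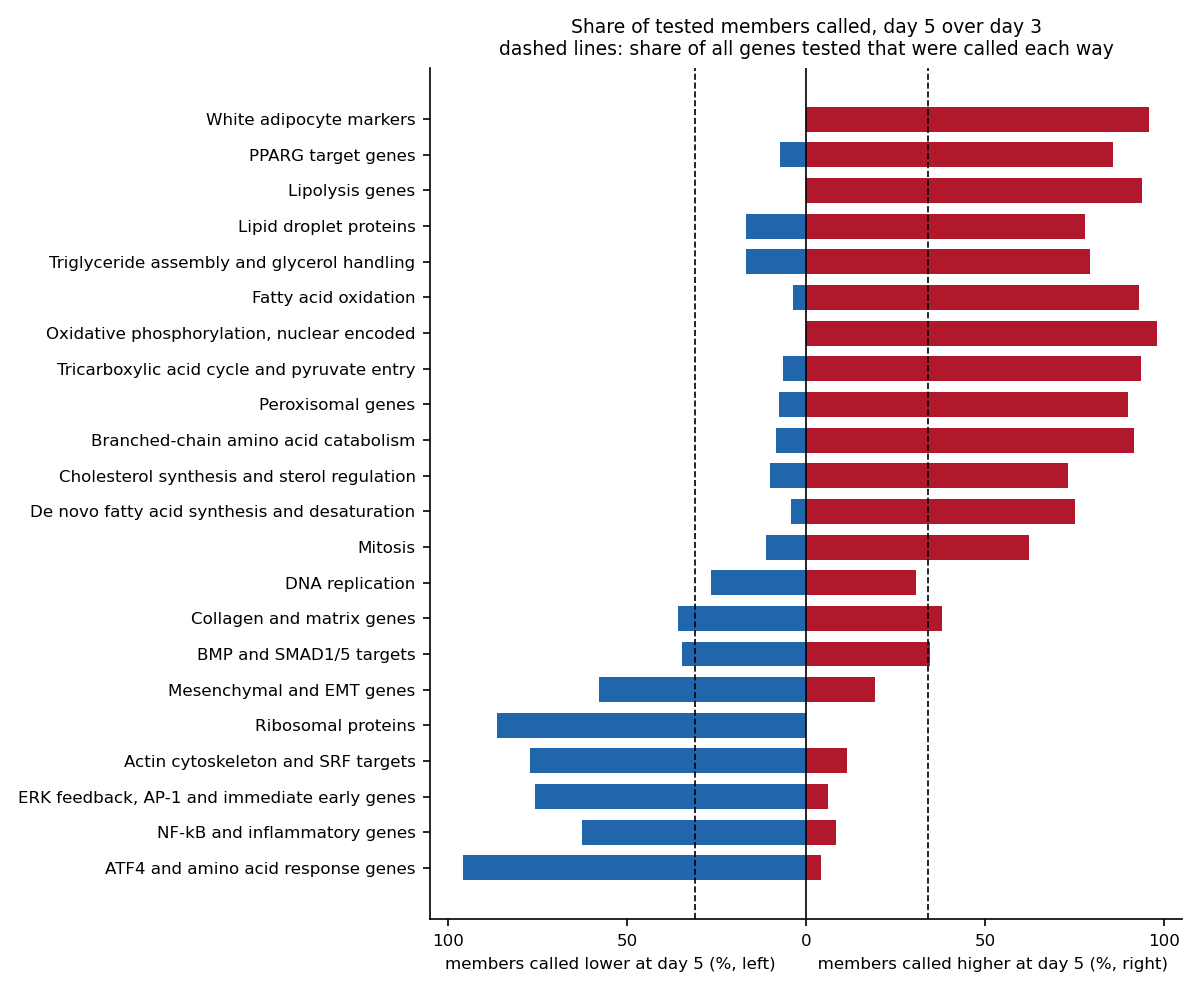
Percent of tested members of 22 lists called lower (blue, left) or higher (red, right) at day 5 than at day 3; dashed lines mark the 31.0% and 34.0% of all genes called each way. Respiratory chain genes are called higher in 98.1% of members and ribosomal proteins in none.

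The 12 largest rises by fitted fold change, among genes with at least 10 CPM at day 5 and no overlap between groups, were G0s2, Plin1, Tppp, Thrsp, Hephl1, Aqp7, Mfng, Adig, Lgals12, Strip2, Sh3tc1 and Hsd11b2. For genes at 0 to 3 counts at day 3 this order depends on the prior count: Hsd11b2 is in it with a bound of 120.3-fold, and Adipoq, with a higher ratio, is not. Of the 12, 4 have not yet been described. Tppp, which promotes tubulin assembly, had 44.4 and 37.3 CPM at day 5 and 0 and 0 CPM at day 3 and was at least 420.5-fold higher. Hephl1, a copper-dependent ferroxidase of the hephaestin family, had 33.5 and 24.8 CPM at day 5 and 0 and 0 CPM at day 3 and was at least 299.9-fold higher. Strip2, a partner of striatin complexes, had 137 and 116 CPM at day 5 and 0 and 0.132 CPM at day 3, a ratio of 1954 (95% exact counting interval 541 to 16143). Sh3tc1 had 63.0 and 55.0 CPM at day 5 and 0.0635 and 0 CPM at day 3, a ratio of 1822 (95% exact counting interval 327 to 72003).

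The 12 largest falls by fitted fold change were in Prr32, Cd93, Prkg2, Inmt, Bcat1, Lif, Rapgef3, Klf4, Car6, Spry1, Fam135b and Arl4d. Prkg2, the cGMP-dependent kinase II, had 2.80 and 4.36 CPM at day 5, against 233 and 302 CPM at day 3 (log2 fold change -6.22, SE 0.17, adjusted p = 1.84e-12). Cd93, a lectin-like receptor, had 0.373 and 0.656 CPM at day 5 and 60.1 and 41.8 CPM at day 3 (log2 fold change -6.60, SE 0.25, adjusted p = 6.63e-13). Prr32 had 0.124 and 0.179 CPM at day 5 and 18.7 and 26.6 CPM at day 3 (log2 fold change -7.14, SE 0.35, adjusted p = 1.8e-11). In Cd93 and Prr32 both day 5 libraries were near 0. Lif, a cytokine of the IL-6 family, had 0.497 and 0.418 CPM at day 5 and 13.3 and 13.9 CPM at day 3 (log2 fold change -4.87, SE 0.28, adjusted p = 1.26e-10), and Rapgef3, which encodes the cAMP sensor EPAC1, had 0.311 and 0.537 CPM at day 5 and 13.4 and 11.6 CPM at day 3 (log2 fold change -4.85, SE 0.27, adjusted p = 9.77e-11). Prkg2 had 187 and 172 CPM at 0 h and Cd93 had 13.7 and 12.7 CPM, whereas Car6, a secreted carbonic anhydrase, had 0 counts at 0 h, 8.45 and 14.7 CPM at day 3 and 0.373 and 0.656 CPM at day 5.

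The step to day 5 was then set against the next 2 days, from day 5 to day 7, in which cells received the same BMP2 and rosiglitazone. Both steps use the day 5 libraries, so they are not independent. From day 5 to day 7, 19.0% of genes rose and 18.8% fell. The difference between the steps passed the test in 5251 genes (41.2%), positive in 3167 (24.9%) and negative in 2084 (16.4%). The PPARγ targets rose in both steps: 38 of 42 were higher at day 7 than at day 5 and none was lower (median 1.29), and the difference was positive in 31 and negative in 4. Respiratory chain genes had a median of 1.89 in the step to day 5 and of 0.40 in the step to day 7, and fatty acid oxidation genes of 2.22 and 0.54. Rxra rose in the step to day 5 and had 159 and 181 CPM at day 7 (-0.50, adjusted p = 6.52e-05). Ppargc1a had 57.2 and 73.0 CPM at day 7, near its day 5 values. Of the ATF4 and amino acid genes 37 of 47 were higher at day 7 than at day 5 (median 0.59). Ddit3 had 121 and 109.9 CPM at day 7, below both day 3 libraries, and Ero1a 1216 and 732 CPM, above both. The ERK list had medians of -1.13 and -0.30, and the mitosis list of 0.80 and -1.15.

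**Figure D5:**
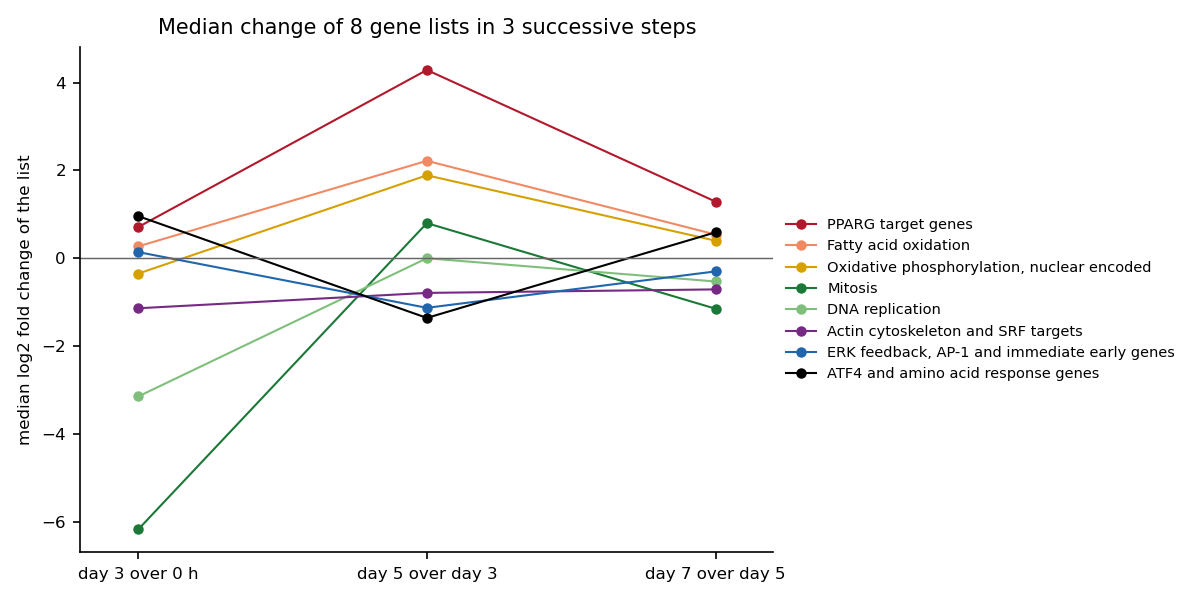
Median log2 fold change of 8 lists in 3 successive steps, with 1 line per list; neighbouring steps share the libraries of the time between them. The PPARγ targets, fatty acid oxidation and respiratory chain lists have their highest median in the step from day 3 to day 5, and the mitosis list has medians of -6.18, 0.80 and -1.15 in the successive steps.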

How the data were processed

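RNA from 12 libraries, 2 for each of 6 time points, was sequenced, and the authors deposited raw counts per gene in 1 table. Per the labels' protocols, 200 ng of total RNA from 2 independent experiments entered a stranded total RNA kit; the labels also call the RNA poly-A+. STAR and mm10 are named in the submitters' processing notes; the sources used here do not give the aligner's version, the counting tool or the annotation. Of 17090 gene identifiers 17049 were matched to symbols (RefSeq GRCm38.p6, and GENCODE for 4 of them).

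Counts were fitted with edgeR 4.0.16 (R 4.3.3): TMM factors, filterByExpr (minimum count 10, minimum total 15), a robust quasi-likelihood F test on 6 residual degrees of freedom, Benjamini-Hochberg adjustment over 12740 genes and a prior count of 0.125. The filter removed 4350 genes. RPKM used the gene lengths in the deposited table. Replicates correlated at 0.992 or more, with a common biological coefficient of variation of 0.0737. The spread was uneven: chi-square per degree of freedom between replicate counts was 16.4 at day 3, 10.7 at day 5 and from 4.37 (0 h) to 11.5 (day 7) at the other times. The p-values pool spread over all times, so they may understate that of day 3. The second principal component (13.2% of variance) set day 3 apart.

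The comparison, the 50 gene lists, the 40 key genes and the promoter motifs were chosen with earlier results of these data known; another list (ATF4 and amino acid genes) and its motif were added after the values were seen. Named genes were the key genes, the 12 largest rises and falls (mean of at least 10 CPM in the higher group, no overlap, predicted genes passed over), per list the 3 most abundant members and up to 4 called ones of largest change, and 6 genes each way for the difference between steps. Acsl4, Ccnb2, Hilpda, Igf1r, Insr, Klf15, Ppard, Rxrb, Spry2, Spry4 and the printed promoters were chosen after their values were seen, as were members named without values. Some genes that the rule names are not reported here.

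Alternatives were DESeq2 1.42.0, a prior count of 1, upper-quartile or median-of-ratios scaling, no filter or one at a mean of 1 CPM, a replicate block, the 4 libraries compared fitted alone, and each library left out. On simulated counts of 12438 genes for day 5 over day 3 with 200 changed, the test recovered 76.1% of genes changed 1.5-fold, 94% at 2-fold and 100% at 4-fold. There were 9 unchanged genes among 189 calls. In the data 65.0% were called, which this does not cover. Every simulated gene had the same dispersion, and the changed genes were drawn from better counted ones, so recovery in the data may be lower.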

Additional observations from a re-analysis of the deposited data

Results flagged for a closer look

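For 12 genes, the 6 most positive and the 6 most negative, the change from day 3 to day 5 differed by test from the change from day 5 to day 7 (edgeR quasi-likelihood test of the difference, Benjamini-Hochberg adjusted). Both steps share the day 5 libraries, and for genes at 0 to 3 counts at day 3 the fitted difference depends on the prior count. Hsd11b2, which inactivates glucocorticoids, had a difference of 11.95 (adjusted p = 6.19e-09): its change was 10.47 in the step to day 5 and -1.48 in the step to day 7. Strip2 had a difference of 11.66 (adjusted p = 1.29e-12), with changes of 10.76 and -0.90, and its levels were 60.6 and 75.3 CPM at day 7. These 2 genes were highest at day 5 among the 3 times. Plin1 had a difference of 11.49 (12.29 and 0.79) and Thrsp of 10.90 (12.01 and 1.11). Hephl1 had a difference of 10.69 (11.79 and 1.10) and Tppp of 10.61 (12.28 and 1.67). These 4 had positive changes in both steps. Their day 3 libraries sat at or near 0, so the pace of the 2 steps cannot be compared.

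Among the negative ones, Prr32 had a difference of -11.25 (-7.14 in the step to day 5 and 4.10 in the step to day 7) and Car6 of -7.01 (-4.46 and 2.56). Stbd1, which binds glycogen, had a difference of -5.83 (-3.82 and 2.01), with 12.2 and 15.8 CPM at day 5 and 171 and 225 CPM at day 3 and 69.2 and 44.4 CPM at day 7. Depp1, a FOXO target, had a difference of -6.14 (-2.30 and 3.84), and its fall at day 5 was not called without day 3 replicate 1 or without either day 5 library (adjusted p = 0.0657 to 0.0776). Each of these 4 fell by day 5 and rose by day 7. Prkg2 had a difference of -6.02 (-6.22 and -0.20) and Bcat1 of -5.77 (-4.95 and 0.82).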

How the results depend on the processing

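The counts of genes called kept within 1.5 times of their value under each alternative run. With a library left out, 3864 to 4321 genes rose, 3583 to 3932 fell, 3148 to 3366 passed at least 2-fold and 3983 to 5277 differed between steps, and under the other alternatives the ranges were 3776 to 4345, 3559 to 4480, 2965 to 3410 and 4492 to 5450. With a replicate block 4345 rose and 4014 fell, and with the block in a fit of only the 4 libraries compared, added after seeing the data, 3855 rose and 3661 fell. Same-numbered libraries of day 5 and day 3 did not deviate together (r = 0.0599 across genes), so the numbers were not taken as pairs. With the block Id1 (0.18, adjusted p = 0.0378) and Flt1 (0.26, adjusted p = 0.0489) gained a call, as did Top2a with the block in the 4 libraries (0.35, adjusted p = 0.04). Among the 330 named genes 1 value reversed: Bmpr2, not called with all libraries, was called lower without day 5 replicate 2 (-0.32, adjusted p = 0.0116) and higher without day 5 replicate 1 (0.33, adjusted p = 0.00749), the cause of which was not tested. In 22 genes a call was lost (43 fits) or gained (31 fits), and 17 of the list counts moved by over 1.5 times. The median of all genes was 0.01, or -0.06 with upper-quartile factors. Genes near the floor rest on few counts, and 2 libraries a time limit the precision of every fold change.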
